A study of Mus musculus with 12 samples.

Results

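The genes of the mitochondrial protein import machinery were compared across left ventricles of 12 mice. The members were all rows of the gene tables whose symbol starts with Timm or Tomm followed by a digit, with Pam16, Dnajc19, Grpel1, Hspa9, Hspd1, Hspe1, Samm50, Pmpca and Pmpcb added. This rule found 33 of the 29564 genes, and 31 of them were among the 14333 genes with enough counts to be tested. Messenger RNA was measured by bulk RNA sequencing, with 1 library per mouse and 4 mice in each of 3 groups. All mice were WT C57BL6. Control-Veh mice (libraries C1 to C4) were non-failing and received vehicle. HFpEF-Veh mice (V1 to V4) had heart failure with preserved ejection fraction, modelled by a high-fat diet with L-NAME, which inhibits nitric oxide synthases, and received vehicle. HFpEF-TYA-018 mice (T1 to T4) had the same diet and L-NAME and received 15 mg/kg TYA-018, an oral inhibitor of the deacetylase HDAC6. The sources differ on dosing. The series title names 1 dose, the labels describe dosing every day for weeks, and the study describes hearts taken hours after that dose. No label gave an age, a sex or a batch. Animal numbers lay together within each group, so cage, date or order of handling cannot be told apart from the group.

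Nearly all mitochondrial proteins are encoded in the nucleus, made in the cytosol and imported. Precursors cross the outer membrane through the translocase of the outer membrane (TOM), after which barrel-shaped outer membrane proteins are inserted by the sorting and assembly machinery (SAM), carrier proteins are inserted into the inner membrane by TIM22 with the help of the small TIM chaperones, and proteins with a cleavable presequence pass through TIM23. An ATP-driven motor around the chaperone mortalin pulls these last precursors into the matrix, where the processing peptidase removes the presequence and a chaperonin folds many of the products. Heart muscle is among the tissues richest in mitochondria, and inherited defects of Dnajc19 in people cause a cardiomyopathy.

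The libraries held 61.2 to 83.9 M estimated counts, and T1 was the deepest. Counts of mitochondrially encoded genes made up 38.8% ± 1.58 of each Control-Veh library, 45.1% ± 2.06 of each HFpEF-Veh library and 38.9% ± 2.65 of each library with the inhibitor (SD, n = 4). C1 stood apart from the other Control-Veh libraries, with lower levels of nearly all members. The number of members called in HFpEF-Veh against Control-Veh is given with and without it. The defining markers of heart muscle were present in every library. Levels of 1 gene across libraries are given in CPM, the counts divided by a library size in M that was scaled with edgeR's TMM method. The summed level of the 8 cardiomyocyte markers was 26288 to 35436 CPM for Control-Veh, 24656 to 26587 for HFpEF-Veh and 27838 to 30357 for HFpEF-TYA-018, with C1 the lowest Control-Veh library and within the HFpEF-Veh range. Of these 8 genes, 5 fell and 1 rose in HFpEF-Veh against Control-Veh, and 3 rose in HFpEF-TYA-018 against HFpEF-Veh. The 5 macrophage markers summed to 58.1 to 70.8, 90.4 to 113.0 and 60.9 to 71.6 CPM in the same order, and all 5 rose in HFpEF-Veh while 3 fell with the inhibitor. The 6 fibroblast markers summed to 379.8 to 567.1, 564.6 to 781.5 and 352.9 to 535.3 CPM (3 higher, then 4 lower), the 6 endothelial markers to 710.5 to 816, 869 to 1050.5 and 684 to 853 CPM (3 higher, then 3 lower), and the 5 red cell markers to 1553 to 2309, 4785 to 14138.5 and 2295.98 to 3571.5 CPM (5 higher, then 5 lower). Of 5 smooth muscle and pericyte markers 1 was higher and then 1 lower, of 3 tested atrial markers 1 was lower in HFpEF-Veh, and of 2 tested fat markers none was called. No marker of these lists was at 0 in all libraries. In bulk tissue, fewer cells of a type and less RNA per cell cannot be told apart, and the part of this composition in the results below was not tested.

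Levels of the members were compared with each other in TPM, which divides counts by transcript length before scaling each library. They spanned a wide range in Control-Veh. The highest were Tomm6, a small subunit of the TOM complex, at 68.9 ± 9.31 TPM, Hspe1, the cap of the matrix chaperonin, at 68.7 ± 6.04 TPM, and Timm23, the channel subunit of TIM23, at 64.1 ± 2.98 TPM (SD, n = 4). These levels did not differ from each other beyond their spread. The lowest tested members in TPM were Timm21, an accessory subunit of TIM23, at 0.620 ± 0.119 TPM, and the receptor gene Tomm20 at 1.12 ± 0.134 TPM. The deposited effective length of Tomm20, over which its reads were expected, was 9990 ± 430 bases in Control-Veh. Its longest annotated transcript has 4902 bases. In CPM it was above Timm22, at 32.2 ± 2.81 and 14.6 ± 1.57 in Control-Veh, so the order in TPM depends on these lengths. Both paralogs left untested were near 0. Tomm20l, a homolog of Tomm20, had an estimated count of 0 in all 12 libraries, and Timm8a2, a homolog of Timm8a1, had counts of 2, 3, 0 and 1 in C1 to C4, 0 in every HFpEF-Veh library and 3 in T3 alone among HFpEF-TYA-018 libraries. All members together held 0.177% ± 0.00507 of the counts of Control-Veh, 0.154% ± 0.0117 of those of HFpEF-Veh and 0.199% ± 0.0223 of those of HFpEF-TYA-018. With the mitochondrially encoded genes left out of the total, these shares were 0.290% ± 0.00563, 0.281% ± 0.0225 and 0.325% ± 0.0227.

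**Figure D1:**
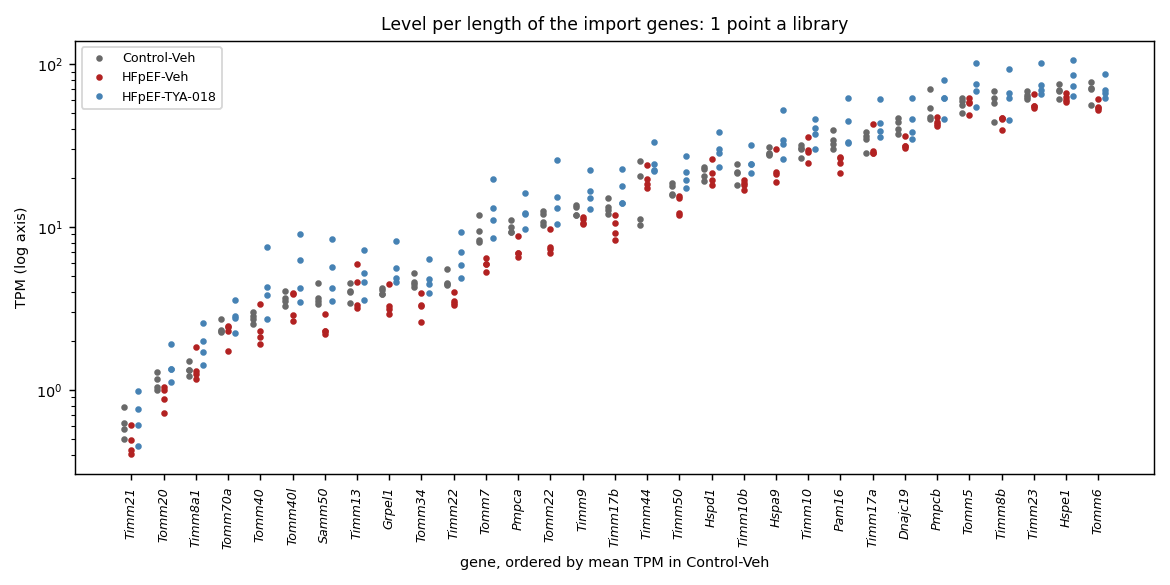
TPM of the 31 tested members on a log axis, 1 point per library, ordered by the mean in Control-Veh (grey, Control-Veh; red, HFpEF-Veh; blue, HFpEF-TYA-018). Levels run from Timm21 and Tomm20 near 1 TPM to Tomm6, Hspe1 and Timm23 above 60 TPM in Control-Veh. The TPM of Tomm20 divides by an effective length above its longest annotated transcript.

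Transcription of nuclear genes for mitochondria depends on factors such as NRF1, the ETS factor GABP and YY1, and that of chaperones on heat shock factors. Promoter sequences are shown for the member that differed most (Samm50) and for Hspe1, whose window overlaps a window of Hspd1. Those of Timm23, Pmpca, Pam16 and Timm50 are shown as examples of a match to a motif of a regulator of mitochondrial genes. These examples were all called higher in HFpEF-TYA-018 than in HFpEF-Veh, and other members with a match are not shown. RefSeq windows on GRCm38.p6, from 250 bases before to 50 after a transcription start, were found for 29 of the 33 members in 32 windows. No window was given for Tomm7, Tomm40l, Hspa9 or Timm21. Each sequence is written 5′ to 3′ on the strand of its gene, and capitals mark matches on either strand to 4 motifs, namely CCGGAAG for ETS factors, GCGCA and GCGC with any base between them for NRF1, AAGATGGCG for YY1, and the heat shock element TTC, GAA and TTC with any pair of bases between the triplets.
Samm50, chr15:84191990-84192289, plus strand, no match: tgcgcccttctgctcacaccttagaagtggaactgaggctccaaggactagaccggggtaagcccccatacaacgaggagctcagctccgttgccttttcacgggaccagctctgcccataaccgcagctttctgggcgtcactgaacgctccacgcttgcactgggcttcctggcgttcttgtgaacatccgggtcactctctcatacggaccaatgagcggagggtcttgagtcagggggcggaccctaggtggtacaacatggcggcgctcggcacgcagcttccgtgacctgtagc
Hspe1, chr1:55087898-55088197, plus strand, overlapping heat shock element and ETS matches: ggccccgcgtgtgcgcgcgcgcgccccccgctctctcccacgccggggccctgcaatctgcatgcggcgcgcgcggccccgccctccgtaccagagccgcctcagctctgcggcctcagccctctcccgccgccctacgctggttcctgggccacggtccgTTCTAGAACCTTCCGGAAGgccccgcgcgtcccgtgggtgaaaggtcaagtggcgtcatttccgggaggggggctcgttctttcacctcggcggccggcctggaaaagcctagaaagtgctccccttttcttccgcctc
Timm23, chr14:32201842-32202141, minus strand, ETS matches: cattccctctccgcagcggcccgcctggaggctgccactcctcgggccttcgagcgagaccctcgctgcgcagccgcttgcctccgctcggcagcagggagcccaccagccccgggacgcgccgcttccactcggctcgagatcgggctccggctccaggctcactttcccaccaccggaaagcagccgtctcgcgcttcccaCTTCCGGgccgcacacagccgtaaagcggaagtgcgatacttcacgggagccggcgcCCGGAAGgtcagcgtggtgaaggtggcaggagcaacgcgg
Pmpca, chr2:26389098-26389397, plus strand, an ETS match: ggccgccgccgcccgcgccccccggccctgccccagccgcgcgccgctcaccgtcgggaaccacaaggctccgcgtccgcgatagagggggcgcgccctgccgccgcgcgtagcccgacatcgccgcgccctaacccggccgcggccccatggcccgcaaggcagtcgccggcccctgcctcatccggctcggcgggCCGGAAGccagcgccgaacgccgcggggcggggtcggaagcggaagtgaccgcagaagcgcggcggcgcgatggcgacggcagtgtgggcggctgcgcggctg
Pam16, chr16:4624897-4625196, minus strand, an NRF1 match: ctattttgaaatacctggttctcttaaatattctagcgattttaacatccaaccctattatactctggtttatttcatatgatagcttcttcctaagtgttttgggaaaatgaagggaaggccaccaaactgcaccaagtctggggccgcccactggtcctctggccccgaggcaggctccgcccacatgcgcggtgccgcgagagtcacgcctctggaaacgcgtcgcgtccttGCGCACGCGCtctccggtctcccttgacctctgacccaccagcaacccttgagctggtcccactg
Timm50, chr7:28311997-28312296, minus strand, a YY1 match: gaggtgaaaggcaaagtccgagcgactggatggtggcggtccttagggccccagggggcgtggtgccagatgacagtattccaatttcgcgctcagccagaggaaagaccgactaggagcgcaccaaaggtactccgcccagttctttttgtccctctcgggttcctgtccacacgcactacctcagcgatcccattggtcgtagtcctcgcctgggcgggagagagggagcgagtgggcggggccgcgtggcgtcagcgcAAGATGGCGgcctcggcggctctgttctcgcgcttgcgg

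The ETS letters were in windows of 13 of the 29 member genes, and in 14 of the 32 windows (43.75%). They were in the windows of 4 of the 12 members called higher in HFpEF-TYA-018 than in HFpEF-Veh that had a window, and of 9 of the other 17. They were in 8.86% of all 32851 windows and in 15.6% of the 13317 windows of tested genes. The 14 member windows include both windows of Tomm34, which overlap and share a match, and the window of Timm8a2, which was not tested. The NRF1 letters were in 4 member windows (12.5%, against 4.60% of all and 9.00% of tested genes' windows), those of Hspd1, Pam16, Timm8b and Tomm20. The YY1 letters were in 1 member window (3.125%, against 1.40% and 2.64%). The heat shock element was in the windows of Hspd1, Hspe1 and Timm9 (9.375% of member windows, against 0.603% and 0.503%). Hspd1 and Hspe1 lie head to head on chromosome 1, and a window of Hspd1, chr1:55087883-55088182 on the minus strand, shares 285 bases with that of Hspe1, with starts 216 bases apart. The heat shock matches and the ETS matches of this pair overlap each other and are the same bases read on opposite strands, so they are not separate matches. The other window of Hspd1, chr1:55088194-55088493, holds its NRF1 match and shares 4 bases with the window of Hspe1. The start of that window, at base 55088243, lies past the Hspe1 start at base 55088148. These matches are a description of the letters in the windows.

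The comparison of HFpEF-Veh with Control-Veh asked how the disease model differed from non-failing hearts, and that of HFpEF-TYA-018 with HFpEF-Veh what the inhibitor changed. All 14333 genes were tested with edgeR's quasi-likelihood test, and a gene was called where its p, adjusted by the Benjamini-Hochberg method, was under 0.05. In HFpEF-Veh, 3 members were called against Control-Veh and all were lower (9.68% of the 31, while 21.2% of all tested genes were called and 10.3% were called lower). These were Samm50, Timm44 and Pmpca. The median log2 difference of the members was -0.12, against -0.011 over all genes. Of the 31, 24 were below 0 and 10 had an unadjusted p under 0.05 (35.5% of all tested genes). In HFpEF-TYA-018, 13 members rose against HFpEF-Veh and none fell (41.9% of the 31, while 19.3% of all tested genes were called 8.93% higher and 10.4% lower). The median log2 difference of the members was 0.21, against 0.0020 over all genes. Of the 31, 29 were above 0 and 18 had an unadjusted p under 0.05 (33.2% of all tested genes). The calls by place in the pathway were 1 of 8 for TOM, 1 of 6 for the small TIMs, 3 of 5 for TIM23, 4 of 5 for the import motor, 2 of 2 for the peptidase and 0 of 2 for the chaperonin, with Samm50 and Timm22 called and Tomm34 not. The 4 libraries of HFpEF-TYA-018 lay entirely above those of HFpEF-Veh for 15 members, while 25.1% of tested genes did not overlap between these groups 12% with HFpEF-TYA-018 higher and 13.1% with it lower. They were the called members other than Pam16, with Tomm7, Tomm40l and Timm10b. For HFpEF-Veh against Control-Veh the groups did not overlap for 2 members, Samm50 and Pmpca, both lower (23.5% of tested genes, 11.5% with HFpEF-Veh lower). Both comparisons use the same 4 HFpEF-Veh libraries, and a low value in these libraries enters both.

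**Figure D2:**
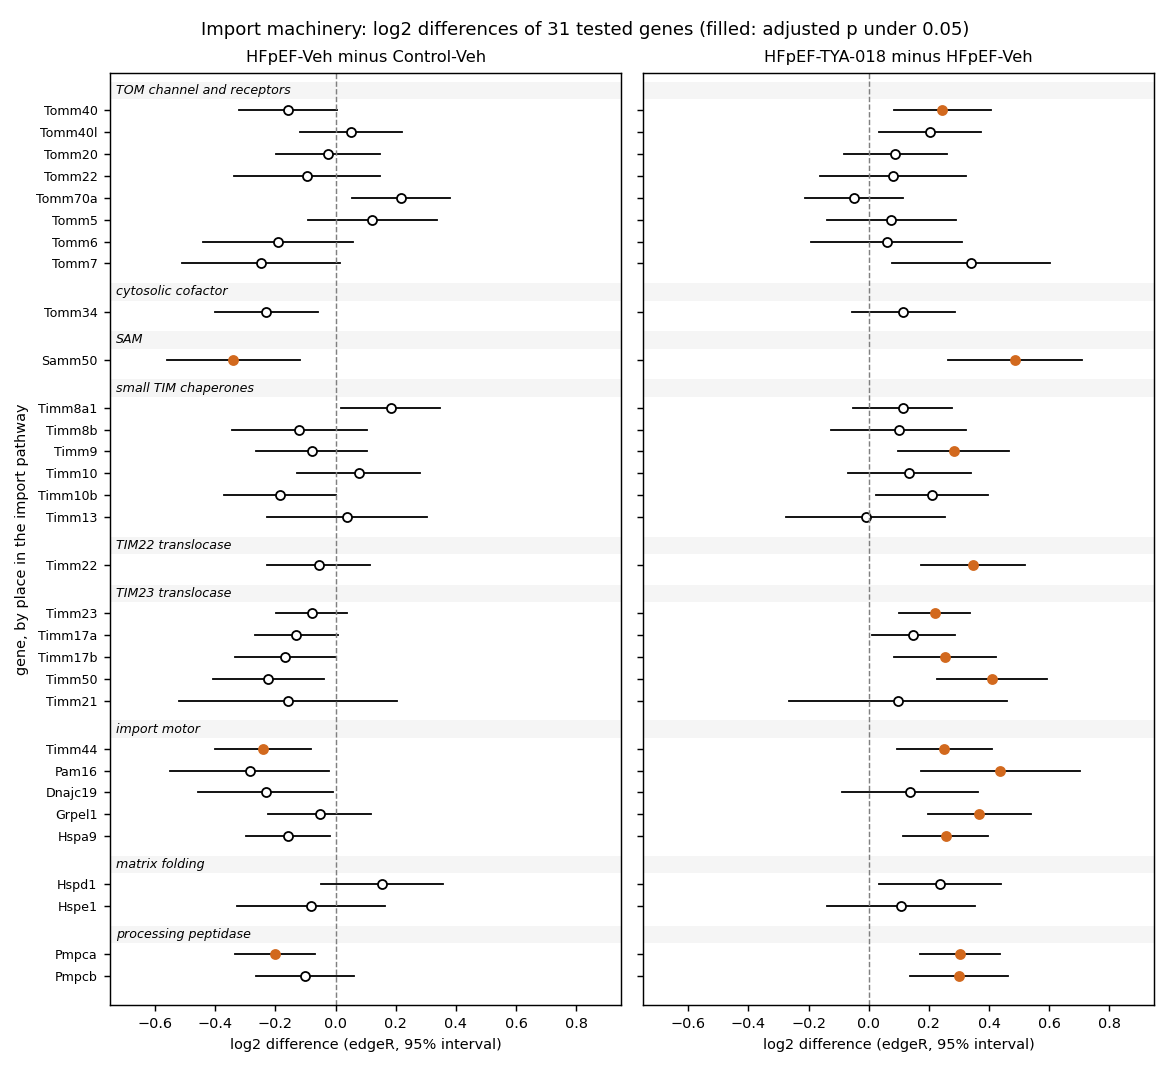
Log2 difference (edgeR) of each tested member with its 95% interval, for HFpEF-Veh minus Control-Veh (left) and HFpEF-TYA-018 minus HFpEF-Veh (right), grouped by place in the import pathway. Filled points have an adjusted p under 0.05: 3 on the left, all below 0, and 13 on the right, all above 0.

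Of 8 tested genes of the outer membrane gate, TOM, 1 rose in HFpEF-TYA-018 against HFpEF-Veh, near the 8.93% of all tested genes called higher, and none was called in HFpEF-Veh against Control-Veh. Without C1, where 27.5% of all tested genes were called, Tomm40, Tomm6 and Tomm7 were called lower and Tomm70a higher in HFpEF-Veh. Each of these was called in only 1 of the 8 fits that left out 1 library. C1 was singled out for its low levels of nearly all members, so a fit without it favours lower calls in HFpEF-Veh. The gene that rose in HFpEF-TYA-018 was Tomm40, which encodes the channel. Its levels were 41.6, 51.6, 50.2 and 49.9 CPM in C1 to C4, 40.2, 46.7, 44.4 and 41.8 in V1 to V4 and 54.0, 52.9, 49.5 and 48.8 in T1 to T4. All HFpEF-TYA-018 libraries were above all HFpEF-Veh libraries, while Control-Veh overlapped both. The log2 difference was 0.24 (95% interval 0.08 to 0.41, adjusted p = 0.0379, edgeR). Its paralog Tomm40l had 39.7, 48.6, 46.0 and 45.3 CPM in Control-Veh, 44.9, 47.0, 48.9 and 45.3 in HFpEF-Veh and 60.3, 55.3, 49.6 and 49.2 in HFpEF-TYA-018. Again every treated library was above every HFpEF-Veh library, but the difference of 0.20 did not pass (adjusted p = 0.0845, edgeR). Per length, Tomm40l was at 1.31 ± 0.101 times the TPM of Tomm40 for Control-Veh, 1.42 ± 0.411 times for HFpEF-Veh and 1.26 ± 0.142 times for HFpEF-TYA-018, and these ranges overlapped. This ratio rests on the deposited effective lengths. That of Tomm40 was 6062 ± 557 bases in Control-Veh, against a longest annotated transcript of 2766 bases. The call of Tomm40 was lost without V1, V3, V4, T1, T2 or T3.

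The receptors, which bind precursors before the channel, showed no call in these comparisons with all 12 libraries. Tomm20 was at 32.2 ± 2.81 CPM for Control-Veh, 31.6 ± 3.19 for HFpEF-Veh and 33.6 ± 1.48 for HFpEF-TYA-018. For Tomm22 the log2 difference of HFpEF-TYA-018 from HFpEF-Veh was 0.08 with an interval of -0.16 to 0.32. Tomm70a, the receptor for carrier precursors, was the TOM gene with the largest positive difference in HFpEF-Veh, at 30.2 ± 2.99 CPM in Control-Veh and 35.2 ± 2.48 in HFpEF-Veh (log2 difference 0.22, adjusted p = 0.0574, edgeR). It missed the threshold, but was called without C1 (adjusted p = 0.0103, edgeR) and with DESeq2 on all libraries (adjusted p = 0.0347). These were 1 of 8 fits without 1 library and 1 of 9 other ways of testing. Over the latter, the difference of Tomm70a ran from -0.11 to 0.22, so its direction depended on the scale. Its difference in HFpEF-TYA-018 from HFpEF-Veh was -0.05. Among the small subunits, Tomm7 had 39.6, 60.8, 44.6 and 49.8 CPM in Control-Veh, 37.8, 46.3, 39.2 and 40.8 in HFpEF-Veh and 58.8, 53.4, 48.3 and 47.2 in HFpEF-TYA-018. Its treated libraries were all above those of HFpEF-Veh, and the difference of 0.34 had an adjusted p of 0.0680 (edgeR). Tomm5 and Tomm6 differed by 0.07 and 0.06 in the same comparison. Tomm7 and Tomm22 were called higher with the inhibitor once effective length, the length over which reads of a gene were expected, entered the model as an offset, at 0.64 (adjusted p = 0.0174) and 0.53 (adjusted p = 0.0261, edgeR). Tomm34, a cytosolic cochaperone that binds precursors, was at 18.2 ± 1.89, 15.5 ± 0.886 and 16.8 ± 0.877 CPM in the 3 groups and was not called (adjusted p = 0.0551 for HFpEF-Veh against Control-Veh, edgeR). In that comparison it was called lower without C1 (adjusted p = 0.0152, edgeR) and with DESeq2 on all libraries (adjusted p = 0.0450). For Tomm34 too, these were 1 of 8 fits without 1 library and 1 of 9 other ways of testing.

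Samm50, the core of the SAM complex, fell in HFpEF-Veh and rose in HFpEF-TYA-018. It had 82.7, 112, 100.0 and 90.4 CPM in C1 to C4, 74.6, 76.4, 78.6 and 74.5 in V1 to V4 and 121, 117, 94.0 and 95.3 in T1 to T4. The HFpEF-Veh libraries lay within a narrow range below all 8 others, and T1 and T2 were the highest of the treated libraries. The log2 difference was -0.34 (-0.56 to -0.12, adjusted p = 0.0344) for HFpEF-Veh against Control-Veh and 0.49 (0.27 to 0.71, adjusted p = 0.00787, edgeR) for HFpEF-TYA-018 against HFpEF-Veh, or 1.40-fold. The latter was the largest difference of any tested member. HFpEF-TYA-018 differed from Control-Veh by 0.15 (-0.07 to 0.37), which did not pass. The call of HFpEF-Veh against Control-Veh was lost when any of the 8 libraries other than C1 was left out (adjusted p up to 0.0991, edgeR), and that of HFpEF-TYA-018 against HFpEF-Veh held without each of the 8 libraries in turn (adjusted p up to 0.0286).

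**Figure D3:**
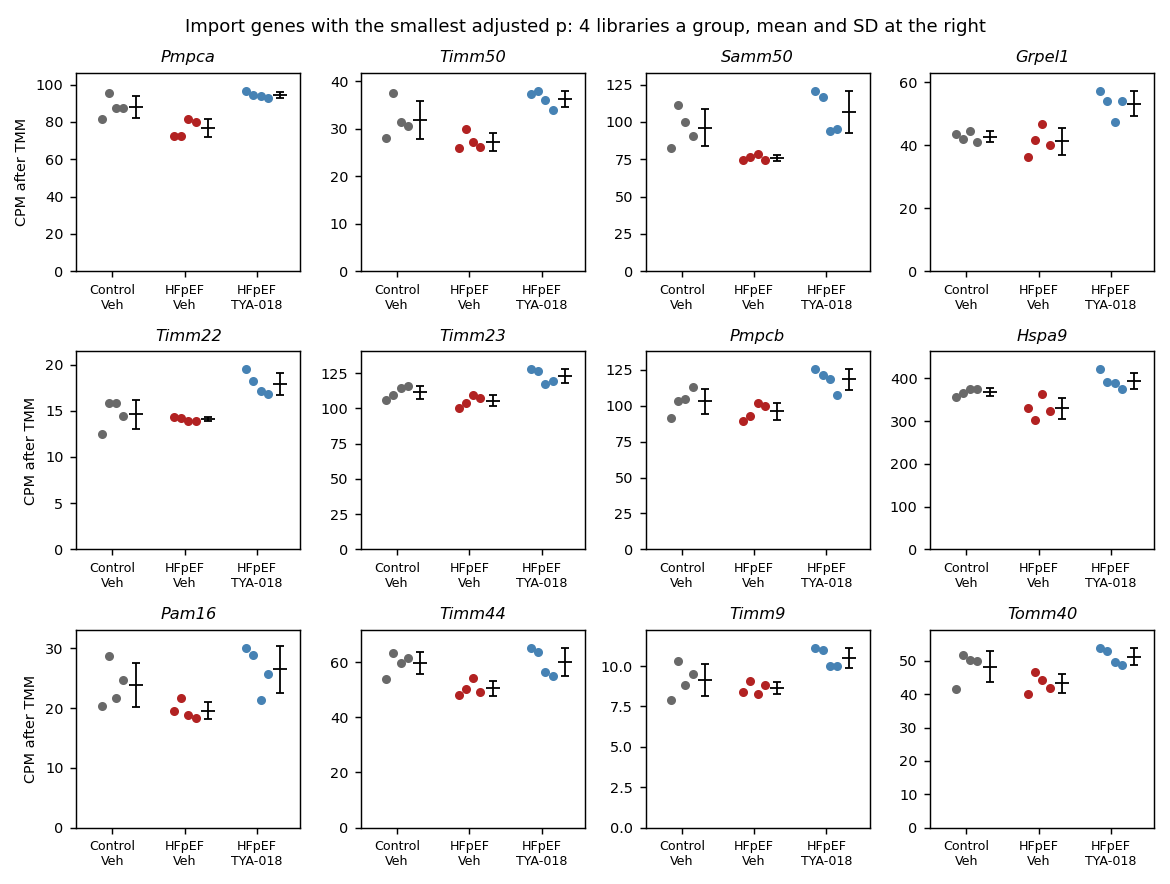
CPM after TMM of the 12 members with the smallest adjusted p in the comparisons of HFpEF-Veh with Control-Veh and HFpEF-TYA-018 with HFpEF-Veh. Points are libraries and the bar at the right of each group is the mean with its SD (n = 4). The treated libraries lie above all HFpEF-Veh libraries in each panel except that of Pam16, where T3 overlaps.

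The small TIM chaperones, which carry hydrophobic precursors across the intermembrane space, had 1 of 6 tested genes called higher in HFpEF-TYA-018 than in HFpEF-Veh, where 8.93% of all tested genes were. This was Timm9, and none of the 6 passed the test in HFpEF-Veh against Control-Veh. It had 7.92, 10.3, 8.80 and 9.52 CPM in Control-Veh, 8.37, 9.09, 8.28 and 8.84 in HFpEF-Veh and 11.1, 10.97, 9.98 and 9.97 in HFpEF-TYA-018. The treated libraries were above all HFpEF-Veh libraries, with a log2 difference of 0.28 (0.10 to 0.47, adjusted p = 0.0359, edgeR), and C2 stood within the treated range. The call was lost without V1, V3, V4, T1 or T2. Its partner in a hexamer, Timm10, differed by 0.14 and was not called (adjusted p = 0.342, edgeR). Timm10b, which docks the hexamer on TIM22, was at 18.5 ± 0.798 CPM in HFpEF-Veh and at 21.4 ± 0.377 with the inhibitor, without overlap, and the difference of 0.21 had an adjusted p of 0.107 (edgeR). Timm13 differed by -0.01 with an interval of -0.28 to 0.25, and Timm8b, its relative, by 0.10. Timm8a1, whose human counterpart is mutated in a deafness and dystonia syndrome, had 8.91, 8.95, 10.2 and 9.87 CPM in Control-Veh, 10.2, 10.2, 11.8 and 10.8 in HFpEF-Veh and 11.4, 12.6, 11.1 and 11.5 in HFpEF-TYA-018. Its treated libraries were above all Control-Veh libraries and overlapped HFpEF-Veh, and it was called in HFpEF-TYA-018 against Control-Veh, at 0.30 (adjusted p = 0.0415, edgeR). Per length, Timm8a1 stood at 0.0238 ± 0.00495 of Timm8b for Control-Veh, 0.0317 ± 0.00987 for HFpEF-Veh and 0.0293 ± 0.00198 for HFpEF-TYA-018. The effective length of Timm8a1 behind this ratio was 2464 ± 144 bases in Control-Veh, against a longest annotated transcript of 1421 bases.

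Timm22, the channel that inserts carriers such as the ADP/ATP exchanger, rose with the inhibitor. Its levels were 12.5, 15.8, 15.8 and 14.4 CPM in C1 to C4, 14.3, 14.2, 13.9 and 13.9 in V1 to V4 and 19.5, 18.2, 17.2 and 16.8 in T1 to T4. HFpEF-TYA-018 was above all 8 other libraries, while HFpEF-Veh lay inside the Control-Veh range. The log2 difference from HFpEF-Veh was 0.35 (0.18 to 0.52, adjusted p = 0.0114, edgeR), and it held without each of the 8 libraries. Against Control-Veh the difference of 0.29 had an adjusted p of 0.0507, just short of a call.

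TIM23, the inner membrane route of presequence proteins, had 3 of 5 genes called higher in HFpEF-TYA-018 than in HFpEF-Veh, where 8.93% of all tested genes were. None was called in HFpEF-Veh against Control-Veh, where all 5 differences were below 0. Timm50, the receptor subunit, had 28.0, 37.6, 31.4 and 30.5 CPM in Control-Veh, 25.9, 30.0, 27.1 and 26.1 in HFpEF-Veh and 37.2, 37.9, 36.0 and 34.0 in HFpEF-TYA-018. The lowest treated library was above the highest HFpEF-Veh library, and C2 lay within the treated range. The log2 difference from HFpEF-Veh was 0.41 (0.23 to 0.59, adjusted p = 0.00721, edgeR). With effective length as an offset it was 0.20 and not called (adjusted p = 0.234, edgeR). Timm23 had 106, 109, 114 and 116 CPM in Control-Veh, 100.4, 104, 109.6 and 108 in HFpEF-Veh and 128, 127, 118 and 119 in HFpEF-TYA-018. Its treated libraries were above all 8 others, with a log2 difference from HFpEF-Veh of 0.22 (0.10 to 0.34, adjusted p = 0.0162, edgeR). Without T2 it was not called, and with effective length as an offset the difference was -0.017. The channel's other subunit is made by a pair of paralogs. Timm17b rose from 13.9 ± 0.584 to 16.6 ± 1.13 CPM (log2 difference 0.25, adjusted p = 0.0391), and Timm17a was at 60.2 ± 3.73 and 66.8 ± 3.95 CPM with a difference of 0.15 that did not pass (adjusted p = 0.124, edgeR). Per length, Timm17b was at 0.393 ± 0.0938 of Timm17a for Control-Veh, 0.314 ± 0.0399 for HFpEF-Veh and 0.384 ± 0.0217 for HFpEF-TYA-018, with overlapping values. The call of Timm17b was lost without V1, V3, V4, T1, T2 or T4. Timm21 was the least expressed tested member, and its interval of -0.27 to 0.46 for HFpEF-TYA-018 minus HFpEF-Veh was the widest of any member.

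The import motor held the largest share of calls among the groups with more than 2 genes, 4 of 5 in HFpEF-TYA-018 against HFpEF-Veh, where 8.93% of all tested genes were called higher. With effective length as an offset none of the 4 was called. The differences were then 0.29 for Grpel1 (adjusted p = 0.0771), 0.31 for Pam16 (0.106) and 0.18 for Hspa9 (0.277, edgeR), with Timm44 given below. Grpel1, which exchanges the nucleotide on mortalin, had 43.6, 41.9, 44.5 and 40.9 CPM in C1 to C4, 36.2, 41.7, 46.9 and 39.9 in V1 to V4 and 57.1, 54.0, 47.5 and 54.0 in T1 to T4. Every treated library was above all others, though T3 exceeded V3 only narrowly, and HFpEF-Veh straddled Control-Veh. The log2 difference from HFpEF-Veh was 0.37 (0.20 to 0.54, adjusted p = 0.00866, edgeR). Pam16, the inactive J-protein partner that holds the motor in check, had 20.4, 28.6, 21.7 and 24.7 CPM in Control-Veh, 19.5, 21.6, 18.8 and 18.3 in HFpEF-Veh and 30.1, 28.9, 21.3 and 25.7 in HFpEF-TYA-018. T3 fell within the HFpEF-Veh range, and the difference of 0.44 (0.17 to 0.70, adjusted p = 0.0273, edgeR) was second among members only to Samm50. The call was lost without V1, V3, V4, T1 or T2. Hspa9, which encodes mortalin and was the member with the highest CPM, had 356, 367, 374 and 376 CPM in Control-Veh, 331, 302, 363 and 324 in HFpEF-Veh and 421, 392, 388 and 374 in HFpEF-TYA-018. Its treated libraries were above all HFpEF-Veh libraries and overlapped Control-Veh only at T4, with a difference from HFpEF-Veh of 0.26 (0.11 to 0.40, adjusted p = 0.0186, edgeR) that was not called without T1.

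Timm44, which ties mortalin to the TIM23 channel, was called in both comparisons. It had 54.0, 63.5, 59.6 and 61.7 CPM in C1 to C4, 47.9, 50.4, 54.4 and 49.2 in V1 to V4 and 65.2, 63.8, 56.4 and 54.9 in T1 to T4. V3 was just above C1, and the treated libraries lay within the range of Control-Veh apart from T1 and T2 above it. The log2 difference was -0.24 (adjusted p = 0.0351) for HFpEF-Veh against Control-Veh and 0.25 (adjusted p = 0.0325, edgeR) for HFpEF-TYA-018 against HFpEF-Veh. The first call was lost without any of C2, C3, C4, V1, V2 or V4 and the second without V1, V2, V4, T1 or T2. Both directions depended on the scale. In TPM the levels were 11.2, 20.5, 10.3 and 25.4 in Control-Veh and 19.7, 18.4, 23.9 and 17.3 in HFpEF-Veh, where the deposited effective lengths of this gene were 1797, 1031, 1958 and 847 bases in C1 to C4 and 772, 849, 796 and 841 in V1 to V4. With those lengths as an offset the differences were 0.44 and -0.083, neither called. Dnajc19, the J-protein that activates the motor, was at 31.3 ± 4.10, 26.7 ± 2.79 and 29.3 ± 2.55 CPM and was not called in any comparison.

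Both subunits of the processing peptidase rose in HFpEF-TYA-018. Pmpca, the alpha subunit, had 81.6, 95.5, 87.7 and 87.3 CPM in C1 to C4, 72.4, 72.5, 81.4 and 80.1 in V1 to V4 and 96.4, 94.7, 93.8 and 92.8 in T1 to T4. The HFpEF-Veh libraries were below all others, with V3 just under C1, and the treated libraries were the least spread of the 3 groups. The log2 difference was -0.20 (-0.33 to -0.07, adjusted p = 0.0360) for HFpEF-Veh against Control-Veh and 0.30 (0.17 to 0.44, adjusted p = 0.00678, edgeR) for HFpEF-TYA-018 against HFpEF-Veh, the smallest adjusted p of any member. The former was lost without C2, C3, C4, V1 or V2, and the latter held without each library. Pmpcb, the catalytic beta subunit, had 91.3, 103, 104 and 113 CPM in Control-Veh, 89.6, 92.8, 102 and 99.5 in HFpEF-Veh and 125, 121, 118 and 108 in HFpEF-TYA-018. Its treated libraries were above all HFpEF-Veh libraries and overlapped Control-Veh, and the difference from HFpEF-Veh was 0.30 (0.14 to 0.46, adjusted p = 0.0174, edgeR), a call lost without T1 or T2. With effective length as an offset the difference was 0.029 (adjusted p = 0.921). Per length Pmpcb was at 5.47 ± 0.737 times Pmpca for Control-Veh, 6.11 ± 1.01 times for HFpEF-Veh and 4.99 ± 0.178 times for HFpEF-TYA-018, with overlapping values. In CPM the subunits were closer, at 103 ± 8.87 for Pmpcb and 88.0 ± 5.71 for Pmpca in Control-Veh, so the ratio rests on the lengths.

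Neither gene of the matrix chaperonin was called in HFpEF-TYA-018 against HFpEF-Veh. Hspd1, its barrel, had 143, 147, 171 and 170.3 CPM in C1 to C4, 172, 152, 202 and 177 in V1 to V4 and 224, 208, 208 and 189 in T1 to T4. V3 was within the treated range, and the treated libraries were above all Control-Veh libraries. The difference was 0.24 from HFpEF-Veh (adjusted p = 0.0941, not called) and 0.39 (0.19 to 0.60, adjusted p = 0.0320, edgeR) from Control-Veh. Hspe1, its cap, had 41.6, 64.6, 54.8 and 57.9 CPM in Control-Veh, 54.7, 54.0, 47.8 and 50.2 in HFpEF-Veh and 57.1, 61.5, 53.0 and 50.8 in HFpEF-TYA-018. The groups overlapped throughout, and its differences were 0.11 from HFpEF-Veh and 0.02 from Control-Veh. A window of Hspd1 overlaps the promoter stretch printed above for Hspe1 by 285 bases, and its other window by 4. Per length Hspe1 stood at 3.22 ± 0.281 times Hspd1 for Control-Veh, 2.96 ± 0.319 times for HFpEF-Veh and 2.74 ± 0.224 times for HFpEF-TYA-018, with overlapping values. In CPM the order was reversed, at 158 ± 14.9 for Hspd1 and 54.7 ± 9.65 for Hspe1 in Control-Veh. The effective length of Hspd1 was 2565 ± 53.2 bases in Control-Veh, against a longest annotated transcript of 2423 bases.

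HFpEF-TYA-018 was also compared with Control-Veh, to ask whether treated hearts differed from non-failing ones. Hspd1, Grpel1 and Timm8a1 were higher in HFpEF-TYA-018 and no member was lower (9.68% of the 31, while 5.86% of all tested genes were called, 3.12% higher and 2.74% lower). Grpel1 differed by 0.32 (0.14 to 0.49, adjusted p = 0.0383, edgeR). The median log2 difference of the members was 0.097, against -0.018 over all genes, and 11 had an unadjusted p under 0.05 (22.5% of all tested genes). The groups did not overlap for 6 members, all higher in HFpEF-TYA-018 (14.8% of tested genes, 7.76% higher and 7.05% lower). They were Tomm40l, Timm8a1, Timm22, Timm23, Grpel1 and Hspd1. When 1 library was left out at a time, 0 to 2 members were called, Grpel1 in 1 of 8 cases (without T3), Timm8a1 in 1 (without C3) and Hspd1 in 2 (without C3 or T4). Without C2, 1 member other than these was called higher. Of all tested genes, 2.12 to 5.58% were called in these fits.

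**Figure D4:**
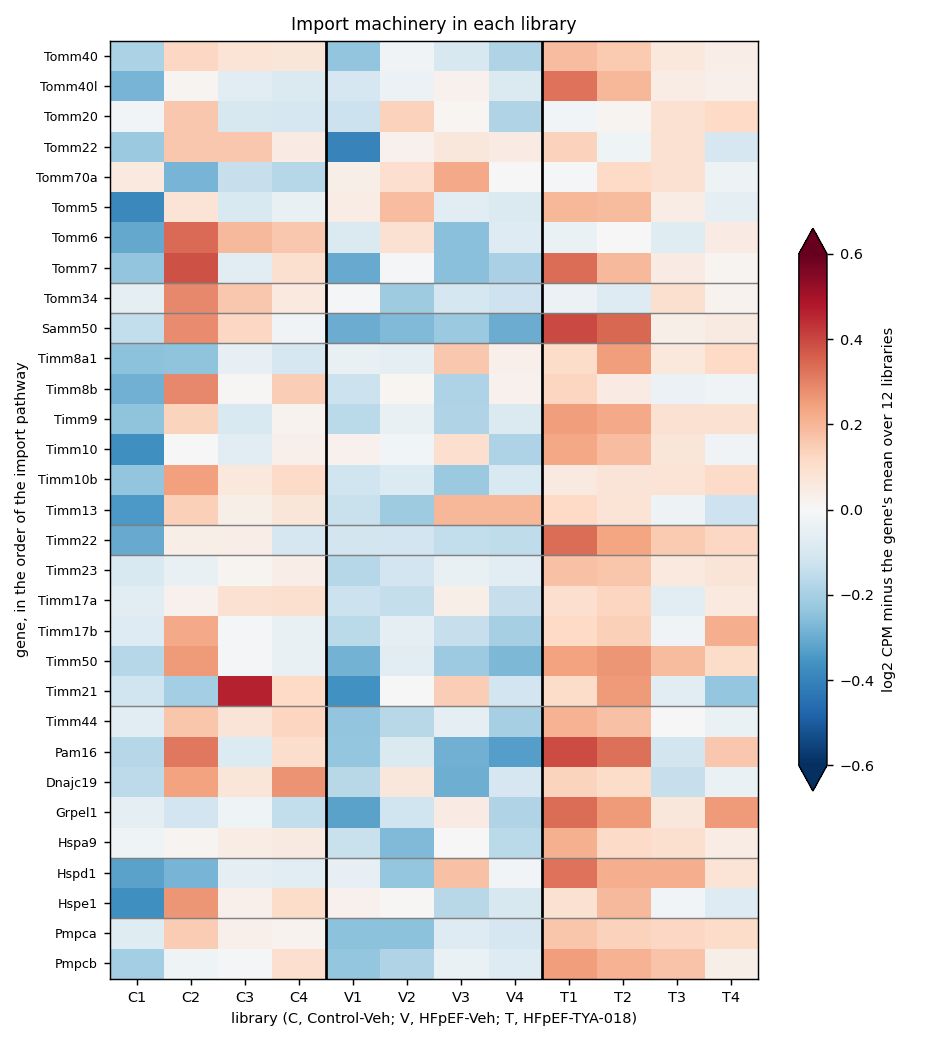
Log2 CPM of each tested member in each library minus its mean over the 12 libraries (red, above; blue, below), in pathway order with lines between groups of genes. C1 is low for nearly all members while C2 to C4 are not, and T1 and T2 are higher than T3 and T4 for many.

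Libraries within a group differed along the whole pathway. C1 had 1 of 31 members above its mean over all libraries, while C2, C3 and C4 had 24, 17 and 20. The HFpEF-Veh libraries had 4, 9, 12 and 4, and the HFpEF-TYA-018 libraries 27, 29, 21 and 21. The median over members of centred log2 CPM was -0.19 in C1 and 0.14 in C2, and the HFpEF-Veh libraries, at -0.13 to -0.057, lay between them. T1 and T2 were both at 0.18, and T3 and T4 at 0.063 and 0.045. The share of mitochondrially encoded counts was 35.4% in T1, 38.2% in T2, 40.6% in T3 and 41.2% in T4. The part of library composition in these values was not tested. Without C1, 11 members were called in HFpEF-Veh against Control-Veh, 10 of them lower, and without C2, C3, C4, V1 or V2 none was. Calls over all tested genes moved too, from 21.2% with all libraries to 27.5% without C1. They were 14.6%, 15.1%, 13.7%, 17.3% and 16.4% without C2, C3, C4, V1 and V2. Without T1 or T2, 6 members were called in HFpEF-TYA-018 against HFpEF-Veh, and without V1 or V4, 8. Of all tested genes 10.2%, 11.2%, 13.8% and 13.3% were called without T1, T2, V1 and V4, against 19.3% with all libraries. Samm50, Timm22, Timm50, Grpel1 and Pmpca were called in that comparison whichever of its 8 libraries was left out.

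The effective length that divides the counts also moved with the groups. It is the length, in bases, over which salmon expected reads of a gene after its corrections for sequence, GC content and position. Tomm7 has 1 annotated transcript of 1125 bases in GENCODE M21, yet its effective length was 1818, 1706, 1819 and 1829 in C1 to C4, 2023, 2230.0, 2318 and 2285 in V1 to V4 and 1511, 1559, 1654 and 1788 in T1 to T4, with HFpEF-Veh above all others. For Samm50, whose longest annotated transcript has 4629 bases, it was 8909 ± 470.3 in Control-Veh, 9986 ± 433 among HFpEF-Veh libraries and 8011 ± 703 with the inhibitor, and HFpEF-Veh overlapped neither of the others. For 7 members it exceeded the longest annotated transcript in all 12 libraries. They were Tomm40, Tomm20, Tomm7, Samm50, Timm8a1, Hspa9 and Hspd1. The TPM values and the ratios per length given above divide by these lengths. Over all tested genes the median log2 length of HFpEF-TYA-018 minus HFpEF-Veh was -0.15, and over members -0.048. On log2(TPM + 1) with limma, 12 members were higher in HFpEF-TYA-018 than in HFpEF-Veh with a median of 0.47, while the median of all genes was itself 0.17, so that members stood 0.30 above it. On that scale 2228 of all genes were called higher and 68 lower, against 1280 and 1487 in CPM, and for HFpEF-Veh against Control-Veh 51 were called higher and 121 lower, against 1561 and 1472. With effective length as an offset in edgeR, 5 members were called higher (Samm50, Timm22, Pmpca, Tomm22 and Tomm7), while the other 10 members called in CPM were not, with differences from -0.083 for Timm44 to 0.42 for Tomm40. The median over members was then 0.080, against -0.0097 over all genes, when 8.49% of all genes were called. In HFpEF-Veh against Control-Veh no member was called on either of these scales, where 1.20% (limma) and 10.1% (length offset) of all tested genes were.

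**Figure D5:**
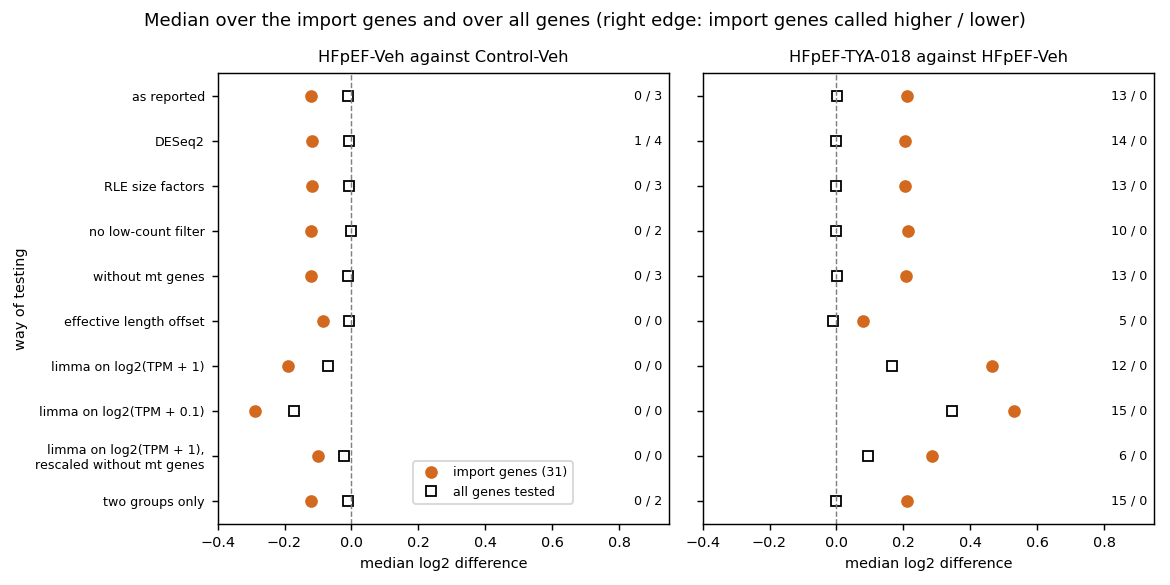
Median log2 difference over the 31 members (filled) and over all tested genes (open squares) under each way of testing, for HFpEF-Veh against Control-Veh (left) and HFpEF-TYA-018 against HFpEF-Veh (right), with the members called higher and lower at the right edge. The member median stays above the all-gene median in the right panel and below it in the left one, by 0.089 to 0.30 and 0.076 to 0.12 on the log2 scale.

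Some members share sequence with other genes, so that the split of their reads is uncertain. The share of 31-base words of a member's transcripts that occur in 1 other gene was 71.8% for Tomm6 (in Gm21981, which overlaps it), 57.7% for Timm23 (Gm10273), 46.5% for Hspd1 (Hspd1-ps3), 41.8% for Timm8a1 (Gm9797), 23.1% for Hspe1 and 20.8% for Pam16 (Gm9803). Gm10273 and Gm9797 had a count of 0 in all 12 libraries. Gm9803 had counts of 167, 314, 157 and 165 in C1 to C4, 132, 226, 0 and 0 in V1 to V4 and 140.3, 0, 0 and 0 in T1 to T4, up to 15.1% of its sum with Pam16. The libraries were made with a kit that keeps strand, the strand setting of the counting is not given in the sources used here, and 20 of the 33 members overlap an annotated gene on the other strand.

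Other genes of import and of mitochondrial protein handling were taken from lists of the pathway. Of 21 further import factors, 6 rose in HFpEF-TYA-018 against HFpEF-Veh and none fell, with a median log2 difference of 0.19, where 19.3% of all tested genes were called and 8.93% were higher. The largest was Romo1, a small inner membrane protein that acts with TIM23, from 44.3 ± 5.89 to 65.1 ± 7.78 CPM (log2 difference 0.56, adjusted p = 0.0284, edgeR). In HFpEF-Veh against Control-Veh, where 21.2% of all tested genes were called, 10.9% higher and 10.3% lower, 2 of the 21 rose, with Chchd4, the oxidoreductase that traps intermembrane space proteins, the largest at 0.36 (adjusted p = 0.00155), and 1, the chaperone Bcs1l, fell (-0.22, adjusted p = 0.0262, edgeR). Of 12 other matrix and inner membrane chaperones and proteases, 7 rose with the inhibitor, led by Spg7, a subunit of an inner membrane protease, at 0.41 (adjusted p = 0.00285), and 4 fell in HFpEF-Veh, led by the protease Htra2 at -0.48 (adjusted p = 0.00851, edgeR). Of 7 genes of MICOS, the scaffold of the cristae, 3 rose with the inhibitor and 1 fell in HFpEF-Veh. Apoo had the largest called rise, 0.30 (adjusted p = 0.00611), and Chchd3 differed by -0.29 in HFpEF-Veh (adjusted p = 0.00441, edgeR). Of 8 regulators of nuclear genes for mitochondria, 2 rose with the inhibitor, Tfam at 0.30 (adjusted p = 0.0158) and the receptor Esrra at 0.29 (adjusted p = 0.00619, edgeR). Nrf1, Gabpa and Yy1, whose motifs were searched in the promoters, differed by -0.04, -0.20 and -0.19 and were not called. In HFpEF-Veh, Atf5, a factor of the mitochondrial unfolded protein response, rose by 0.29 (adjusted p = 0.0170) and Esrra differed by -0.20 (adjusted p = 0.0278, edgeR).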

How the data were processed

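Polyadenylated RNA from 12 left ventricles was sequenced. Per the methods, the authors trimmed reads with fastp, quantified them with salmon (version 1.6.0 in the submitters' notes) against mouse GENCODE M25 transcripts and summarised genes with tximport. The submitters' notes name hg38, but the symbols are mouse ones. The authors deposited estimated counts per gene (not normalised), TPM, and another table of effective lengths. Labels and methods differ in read length and layout. Members and lists were chosen with earlier results of these data known.

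Rounded counts entered edgeR 4.0.16 under R 4.3.3 (filterByExpr, TMM, 1 quasi-likelihood model of 12 libraries with 9 residual degrees of freedom, Benjamini-Hochberg adjustment over 14333 genes), after a test on simulated data. CPM after TMM are given per library or as mean ± SD (n = 4). Alternatives used DESeq2 1.42.0, limma 3.58.1 on log2(TPM + 1), other filters and scaling, and left out each library. All columns were used (0 left out). All members were described by role, with library values for the 12 of smallest adjusted p, paralog pairs and members near 0. Hspd1, Tomm7 and other uncalled members given per library were added after their values were seen. Replicates were separate animals. The file tables give no depth beyond the estimated counts. Intervals are for the difference between group means, estimated from the spread between libraries. Overlapping genes and shared 31-base words were taken from GENCODE M21, an older release than that of the counts, and promoters from RefSeq.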

Additional observations from a re-analysis of the deposited data

Results flagged for a closer look

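In the 4 libraries of HFpEF-Veh, Tomm22 had 28.6 CPM in V1, far from the other 3 libraries (38.4 to 39.6 CPM). Timm17a had 65.8 CPM in V3 of the same group, far from the others (58.1 to 58.6 CPM). These 2 values stood apart among 93 sets of 4 libraries checked, and chance sets apart about 1 in 20. Neither gene was called in the edgeR fit of counts, while Tomm22 was called higher in HFpEF-TYA-018 than in HFpEF-Veh under 3 of 9 other ways of testing.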

How the results depend on the processing

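No paired analysis was possible because the groups share none of their animal numbers. Members called were 3 for HFpEF-Veh against Control-Veh, 13 for HFpEF-TYA-018 against HFpEF-Veh and 3 for HFpEF-TYA-018 against Control-Veh. In that order, DESeq2 called 5, 14 and 5, an effective length offset 0, 5 and 0, limma on log2(TPM + 1) 0, 12 and 0, on log2(TPM + 0.1) 0, 15 and 0, and on log2(TPM + 1) rescaled without mitochondrially encoded genes 0, 6 and 0. Of all tested genes, the main fit called 21.2%, 19.3% and 5.86%, DESeq2 26.2%, 23.8% and 10.6%, and the length offset 10.1%, 8.49% and 1.42%. The limma shares were 1.20%, 16.0% and 0.0628% on log2(TPM + 1), and 2.10%, 18.3% and 0.0767% on log2(TPM + 0.1). On rescaled TPM they were 3.01%, 5.01% and 0.175%. Without 1 library the counts ranged from 0 to 11, 6 to 12 and 0 to 2, with 11 without C1 and 6 without T1 or T2. The shares of all tested genes called then ranged from 13.7 to 27.5%, 10.2 to 18.8% and 2.12 to 5.58%. RLE size factors, no low-count filter, fits of the groups compared alone and removal of mitochondrially encoded genes kept the counts within 1.5 times. Turned directions are given here for members called in the main fit. That of Timm44 in HFpEF-Veh against Control-Veh turned with the length offset (0.44), log2(TPM + 1) (0.31), log2(TPM + 0.1) (0.33) and rescaled TPM (0.49). With the length offset, Timm44 (-0.083) and Timm23 (-0.017) turned in HFpEF-TYA-018 against HFpEF-Veh. None of these values passed the test. Samm50, Timm22 and Pmpca were called higher in HFpEF-TYA-018 than in HFpEF-Veh under all 9 other ways of testing and without each library. The number of libraries, 4 per group, limits the precision of small differences, and Timm8a2 and Tomm20l had few or no counts.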
